A study of Mus musculus with 48 samples.

Results

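At embryonic day (E) 16, enhancer reporter activity in cortical intermediate progenitor cells (IPC) was compared with that in neural stem cells (NSC) over a library of short genomic elements. The comparison used 8 of the 48 reporter libraries of the series and the 11125 of 11709 elements that had a value in both E16 columns. All groups were C57BL/6JRj mouse embryos, with no treatment named other than the electroporated reporter pool. The pool was introduced into the somatosensory cortex by in utero electroporation at E15, and cells were collected 24 hours later, at E16. Cells were fixed with formaldehyde, permeabilised, stained and sorted into Pax6+ cells, taken as NSC, and Tbr2+ (Eomes) cells, taken as IPC. Each cell type had 2 biological samples at E16, each with 1 DNA and 1 RNA library. The comparison groups were NSC and IPC made the same way and collected at E13, E14, E15 and E17.

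In a massively parallel reporter assay, many candidate regulatory elements are placed beside a reporter, and the RNA made from each is read against its DNA. NSC, or radial glia, divide along the ventricle and give rise to IPC, which carry the T-box factor Eomes and mostly divide to give neurons of the cortical layers. Late in neurogenesis the cortex produces upper-layer neurons and radial glia turn towards making glia. Elements of the class named Scrambled, here called scrambled controls, are taken to show what the reporter does without a designed enhancer.

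The deposited table held 1 value per element, cell type and age, which pools the biological samples, so the spread between embryos is unknown and no difference has a test across samples. Standard errors (SE) and 95% Wilson intervals below cover the sampling of elements within a class only. The files used here held no endogenous expression, so the sorted populations could not be checked against marker genes, and the Pax6+ and Tbr2+ gates are the only evidence of cell type. The column ages matched the collection ages of the labels. Activity is the deposited score over the scrambled median of its column, on a log2 scale with a pseudocount of 0.1, minus the scrambled mean. A value of 0 is therefore the average scrambled control. The sequencing depth behind each value is unknown.

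The library classes are named NSC, IPC, Mature, E14, Shadow and Scrambled in the table, and the sources used here do not define them. The E14 class is a set of elements and not an age. Its element names hold mm10 coordinates, which allowed each to be placed against RefSeq gene spans: 529 of 931 lay within a protein-coding gene. Of the 931, 12 overlapped a RefSeq promoter window reaching from 250 bases before to 50 bases after a start site. A pair of these stretches is shown because they are E14-class elements whose bases could be read here, with upstream bases only. The Prelp element was the only one of the 12 above the activity limit in IPC. The Arvcf element was the only one lying wholly inside its window. Both sequences come from RefSeq promoters of build GRCm38.p6 and are written along the gene strand. Capitals mark the letters matching TTGGCA (a motif of NFI factors) in Prelp, and ACAAAG (a Sox motif) or CAGATG (an E-box) in Arvcf, on either strand.
Prelp, chr1:133921451-133921651, minus strand: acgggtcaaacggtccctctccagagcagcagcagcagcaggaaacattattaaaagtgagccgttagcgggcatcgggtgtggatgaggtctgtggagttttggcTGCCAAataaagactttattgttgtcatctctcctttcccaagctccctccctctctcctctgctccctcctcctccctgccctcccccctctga
Arvcf, chr16:18380560-18380782, plus strand: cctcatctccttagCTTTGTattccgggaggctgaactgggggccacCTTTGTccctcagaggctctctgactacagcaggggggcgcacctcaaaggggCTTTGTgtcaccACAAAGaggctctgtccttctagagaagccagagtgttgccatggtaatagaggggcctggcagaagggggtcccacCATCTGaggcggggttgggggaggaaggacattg

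Of the 11 motifs searched, Prelp held 1, with a single TTGGCA match, which 9.91% of 21263 promoter stretches of the same position and length also held. Arvcf held 4 matches to ACAAAG, a motif found at least once in 15.0% of such stretches over the full element, and 1 match to CAGATG, found in 13.04%. Prelp encodes a leucine-rich proteoglycan of the extracellular matrix. Its element had an activity of 1.00 in NSC and 3.39 in IPC at E16, a difference of 2.39, which lay inside the scrambled limits described below. At the other ages this difference was 0.96 at E13, -1.34 at E14, -0.38 at E15 and 1.26 at E17, so its sign varied. Arvcf encodes a catenin that binds cadherins. Its element had -0.81 in NSC and 1.00 in IPC, giving a difference of 1.82, and the signs at the other ages were positive at E13, E15 and E17 (1.24, 0.53 and 0.19) and negative at E14 (-1.38). Of the 12 promoter elements, 11 had both E16 values, and none lay beyond the difference limits. Their differences ran from -2.41 at Rlbp1, of which 47 bases overlapped the window, to 2.39 at Prelp.

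Elements of the NSC class were less active in IPC than in NSC at E16. Their mean activity was 0.29 ± 0.02 (SE, n = 2976 elements) in NSC and 0.06 ± 0.03 in IPC. The IPC minus NSC difference was -0.23 ± 0.03, and 42.2% of them were higher in IPC. Elements of the IPC class went the other way by a small amount: 0.19 ± 0.02 in NSC and 0.26 ± 0.03 in IPC (n = 2856); they differed by 0.07 ± 0.03, with 1429 of them higher in IPC and a median of 0.00. The NSC class therefore exceeded the IPC class by 0.10 ± 0.03 in NSC and lay 0.20 below it in IPC (-0.20 ± 0.04). The difference of the differences was -0.30 ± 0.05.

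Scrambled controls had a mean difference of -0.02 ± 0.05 (n = 969). Against them the NSC class shifted by -0.22 ± 0.06, which exceeds its error. The shift of the IPC class against the controls was 0.08 ± 0.06, and that of the E14 class 0.12 ± 0.08, both with a 95% interval that includes 0. E14-class elements had the highest class means in both cell types, 0.33 ± 0.04 in NSC and 0.43 ± 0.05 in IPC, and a difference of 0.10 ± 0.06 (n = 902). The Mature class (0.01 ± 0.04, n = 2552) and the Shadow class (0.08 ± 0.06, n = 870) also had 95% intervals that include 0. All of these shifts were small against the spread of single elements, whose differences had an SD of 1.79 in the NSC class and 1.58 in the controls. The size of the NSC-class shift depended on the scale: with a pseudocount of 1 it was -0.15. When elements below the scrambled median in both columns were left out, the IPC, E14, Mature and Shadow classes stood at 0.16, 0.19, 0.11 and 0.20, all with intervals that exclude 0. The controls so filtered stood at 0.06 ± 0.07 (n = 718), and their interval (-0.07 to 0.19) overlapped that of each of these classes. With a pseudocount of 0.01 the interval of the IPC class included 0.

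**Figure D1:**
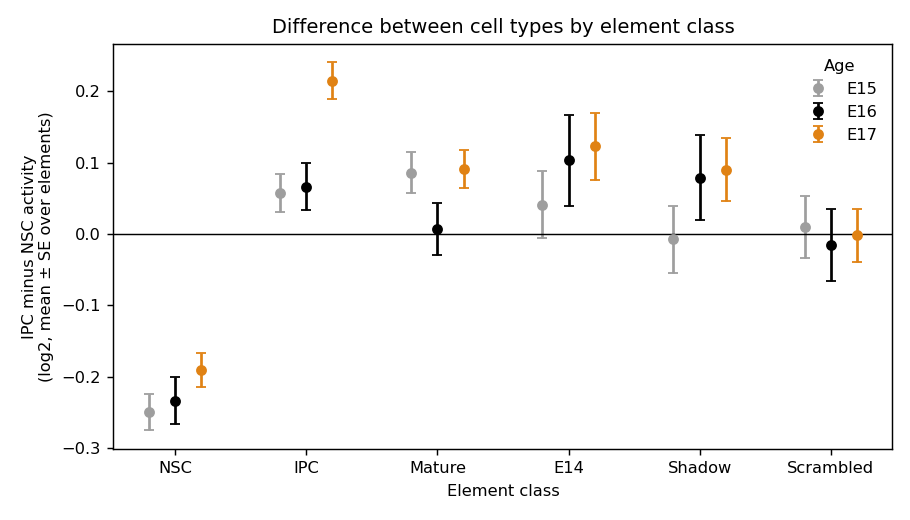
Mean IPC minus NSC activity (log2) of each element class at E15, E16 and E17, with bars of 1 SE over elements. At E16 the NSC class lies at -0.23 and the other classes between -0.02 and 0.10.

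E16 lay between its neighbours in age for the NSC class, at -0.25 ± 0.03 at E15, -0.23 ± 0.03 at E16 and -0.19 ± 0.02 at E17. The IPC class was alike at E15 (0.06 ± 0.03) and E16 (0.07 ± 0.03) and stood at 0.21 ± 0.03 at E17, more than the E16 error away. The gap between both classes was -0.31 ± 0.04 at E15, -0.30 ± 0.05 at E16 and -0.40 ± 0.03 at E17. The Mature class was at 0.09 ± 0.03 at E15 and E17 and at 0.01 ± 0.04 at E16. Whether embryos differ by as much is unknown, because each column is a single pooled value per element.

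The E16 columns were among the more variable. The scrambled controls had a log2 SD of 1.27 in IPC at E16 and 1.07 in NSC, against 1.03 and 0.94 at E15 and 0.99 and 0.67 at E17. The limits that leave 2.5% of controls on either side of the IPC minus NSC difference were accordingly wide, at -3.13 and 3.19, against -2.59 and 2.84 at E15 and -2.30 and 2.41 at E17. An element had to differ by about 3 log2 units between cell types to be set apart at E16.

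Of all 10156 non-scrambled elements, 461 (4.54%) lay above the upper limit, higher in IPC, and 417 (4.11%) below the lower limit, higher in NSC. In the NSC class 117 elements (3.93%, interval 3.29 to 4.69%) lay above and 142 (4.77%, 4.06 to 5.60%) below. In the IPC class 134 (4.69%, 3.98 to 5.53%) lay above and 90 (3.15%, 2.57 to 3.86%) below. The intervals of the shares above and below overlapped in every class but the IPC class. With a pseudocount of 0.01 (121 above, 98 below) or 0.5 (126 and 99) they overlapped in the IPC class too. The E14 class had 47 above (5.21%) and 42 below (4.66%), the Mature class 119 and 112, and the Shadow class 44 and 31. The controls that set the limits had 25 and 25 of 969 beyond them, 2.58% on either side. The intervals below the limit of the IPC and Shadow (2.52 to 5.01%) classes reach that share, and the Shadow share below was 2.30% with a pseudocount of 1.

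**Figure D2:**
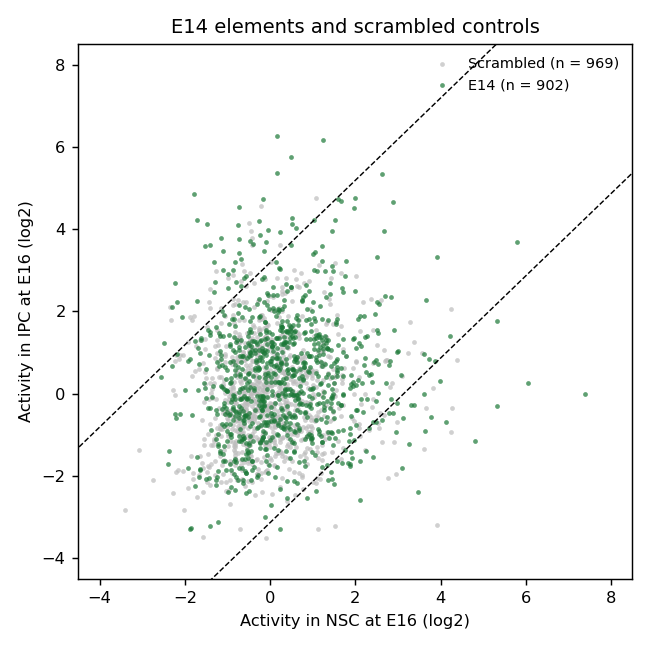
Activity in NSC (horizontal, log2) and IPC (vertical, log2) at E16 for E14-class elements (green) and scrambled controls (grey), 1 point per element; the dashed lines are the difference limits of -3.13 and 3.19. Most of both sets lie between the lines, and 47 and 42 E14-class elements lie beyond the upper and the lower line.

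An element was called active when it lay above the value that 2.5% of the controls exceeded, an activity of 2.76 in IPC and 2.63 in NSC. Over all non-scrambled elements 472 (4.65%) were active in IPC and 347 (3.42%) in NSC. The E14 class had the highest share in IPC, 65 of 902 (7.21%, 5.69 to 9.08%), against 39 in NSC (4.32%, 3.18 to 5.86%). The IPC class had 148 active in IPC (5.18%, 4.43 to 6.06%) and 84 in NSC (2.94%, 2.38 to 3.63%). The NSC class had 115 (3.86%, 3.23 to 4.62%) and 127 (4.27%, 3.60 to 5.05%). Shadow elements had 43 (4.94%) in IPC and 21 (2.41%) in NSC, the latter at the level of the controls. By the authors' deposited adjusted p-value under 0.05, more elements passed and the order of the cell types turned: 1639 (16.1%) in IPC and 1960 (19.3%) in NSC, but 12.3% and 12.8% of the scrambled controls passed as well. By that call the NSC class had 13.3% in IPC and 22.4% in NSC, the IPC class 18.5% and 18.8%, and the E14 class 21.4% and 24.2%.

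**Figure D3:**
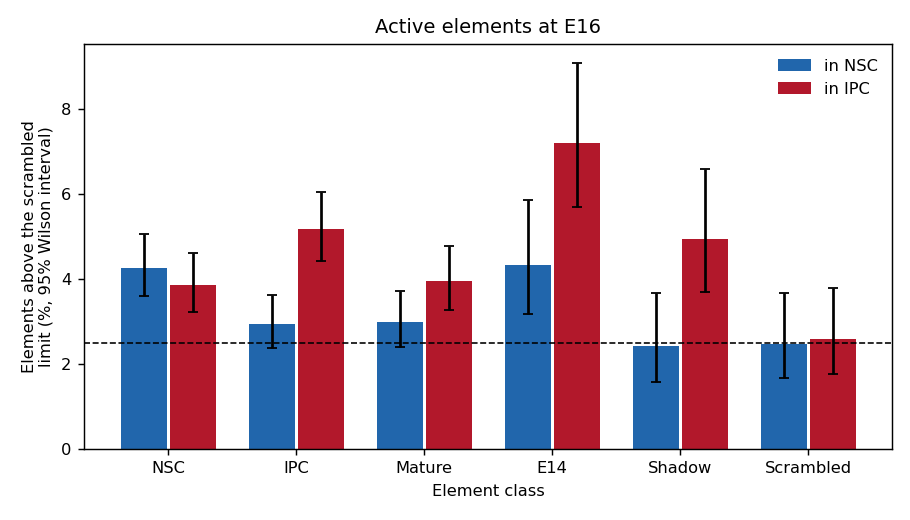
Share of elements (%) above the scrambled activity limit in NSC (blue) and IPC (red) at E16, by class, with 95% Wilson intervals; the dashed line marks 2.5%. E14-class elements in IPC stand highest, at 7.21%.

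Few elements were active in both cell types: 27 of 10156 non-scrambled elements (0.266%), against 0.159% from the product of both shares. In the E14 class they were 4, at loci named after the values were seen: within Shb, Vcam1 and Git2, and 171 kb from Spry2. Over elements, activity in NSC and IPC at E16 was nearly unrelated, with a Spearman correlation of 0.09 among non-scrambled elements and 0.08 among controls. Elements are not replicates, and both columns share the reporter library. Activity in the same cell type at the next age recurred more often than over all elements: 49 of 352 non-scrambled elements active in NSC at E16 were active in NSC at E17 (13.9%, 10.7 to 17.9%) against 6.52% of all, and 54 of 470 active in IPC were active in IPC at E17 (11.5%, 8.91 to 14.7%) against 6.85%. Across cell types, 46 of 474 active in IPC at E16 were active in NSC at E17 (9.70%, 7.35 to 12.7%), and 33 of 348 active in NSC were active in IPC at E17 (9.48%, 6.83 to 13.02%). The recurrence within and across cell types was not tested against each other. Within IPC, recurrence was 6.96% at both E13 and E14, with intervals that include the 5.38% and 5.84% of all. At E15 it was 7.45% (5.40 to 10.2%) against 3.77%. Within NSC it was 5.01%, 9.32% and 6.65% at E13, E14 and E15, against 3.17%, 4.12% and 3.49%. Only the E13 interval there includes the share of all. In the E14 class the E17 shares were 13.8% in IPC and 15.4% in NSC, with intervals that include the class shares of 10.2% and 10.8%.

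The names of NSC, IPC and Mature elements carry a label, asc, desc or unc, that the sources used here do not define. At E16 the label changed the cell-type difference by less than 1.5 times its error in every pair. In the NSC class the difference was -0.26 ± 0.05 for asc (n = 1099), -0.17 ± 0.06 for desc (n = 1018) and -0.28 ± 0.06 for unc (n = 859). In the IPC class it was -0.02 ± 0.07 for asc (n = 699), 0.08 ± 0.05 for desc (n = 1080) and 0.11 ± 0.06 for unc (n = 1077). All 3 Mature labels lay between -0.02 and 0.04.

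Some labels differed in level within a cell type. In NSC, asc elements of the IPC class exceeded desc elements by 0.15 ± 0.06, while in IPC the same gap was 0.04 ± 0.07. NSC-class desc elements lay below unc elements by 0.13 in NSC (-0.13 ± 0.06). Mature asc elements were the lowest group in both cell types, at -0.10 ± 0.08 in NSC and -0.11 ± 0.09 in IPC (n = 286), and lay 0.22 below Mature desc elements in IPC (-0.22 ± 0.10). Of 9 label pairs in each cell type, these are the ones whose 95% interval excludes 0, with no adjustment for their number.

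**Figure D4:**
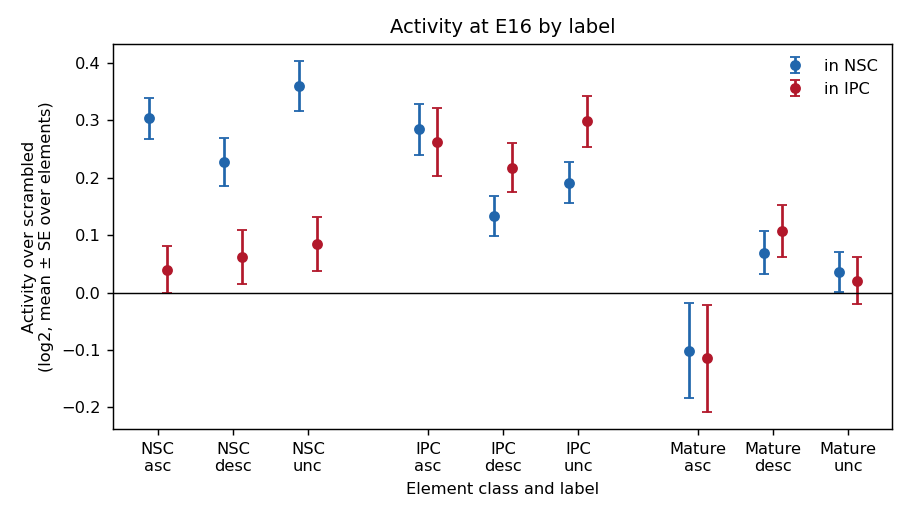
Mean activity (log2 over scrambled) at E16 in NSC (blue) and IPC (red) for each class and label, with bars of 1 SE over elements. NSC-class elements lie higher in NSC than in IPC under all 3 labels, and Mature asc elements are lowest.

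Single E14-class elements beyond the difference limit and above the activity limit of the higher cell type numbered 36 higher in IPC (3.99%, against 2.74% of all non-scrambled elements) and 20 higher in NSC (2.22%, against 1.81%). The interval for those higher in IPC, 2.90 to 5.48%, excluded the background share, and that for NSC, 1.44 to 3.40%, did not. Just inside the limits lay the elements at Tut7 (3.14) and Prom2 (-3.11). Just beyond them lay those at Fam171b (3.20) and Sparcl1 (-3.14). Naming an element by a gene states its place only, since the assay does not link it to that gene.

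The largest differences in favour of IPC were at loci of several kinds. An element 3.93 kb from Srrm4, a splicing factor of neurons, had -1.79 in NSC and 4.84 in IPC, giving a difference of 6.64. An element within Ppm1e, a protein phosphatase gene, had 0.17 and 6.26, a difference of 6.09. Elements 145 kb from Arpp21 and 143 kb from Msrb3 differed by 5.93 and 5.60. Next came elements near Mrpl39, a mitochondrial ribosomal protein (5.27), near Klf13, a zinc-finger factor (5.26), and within Bcl2l13, a mitochondrial Bcl2-family protein (5.19). The last of the 10 lay near Nhlh2, a basic helix-loop-helix factor (5.12), and within Pitrm1 (5.03) and Kcnj9, a potassium channel (4.94). In NSC these 10 had activities between -1.79 and 0.49, around or below the controls.

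Those higher in NSC were led by an element 341 kb from Rragc, a GTPase of amino acid sensing, with 7.39 in NSC and -0.02 in IPC, giving a difference of -7.41. An element 5.66 kb from Sfr1, a recombination factor, had 4.80 and -1.14, a difference of -5.94. An element 57.0 kb from Nog, the BMP antagonist noggin, had 3.48 and -2.40, a difference of -5.87. An element within Gap43, a growth cone protein, had 6.04 and 0.25, a difference of -5.79. Others lay within Spata13 (-5.60), near Scrt2, a neuronal zinc-finger repressor (-4.91), within Nav3 (-4.81) and near Nos1ap (-4.49).

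At the other ages the same elements did not keep these differences. For each list of 10, 21 of 39 values at E13, E14, E15 and E17 had the sign seen at E16 (53.8%). Over all E14-class elements, 52.3 to 54.8% were higher in IPC at these ages and 45.2 to 47.7% higher in NSC. Only the Bcl2l13 element among the 20 in both lists had the E16 sign at all 4 other ages (0.93, 1.61, 0.09 and 0.45), each far below its E16 value. The Nos1ap element had the opposite sign at all 4. The Srrm4 element was also higher in IPC at E17 (4.21) but lower at E15 (-2.85), and the Rragc element was higher in IPC at E17 (4.16).

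**Figure D5:**
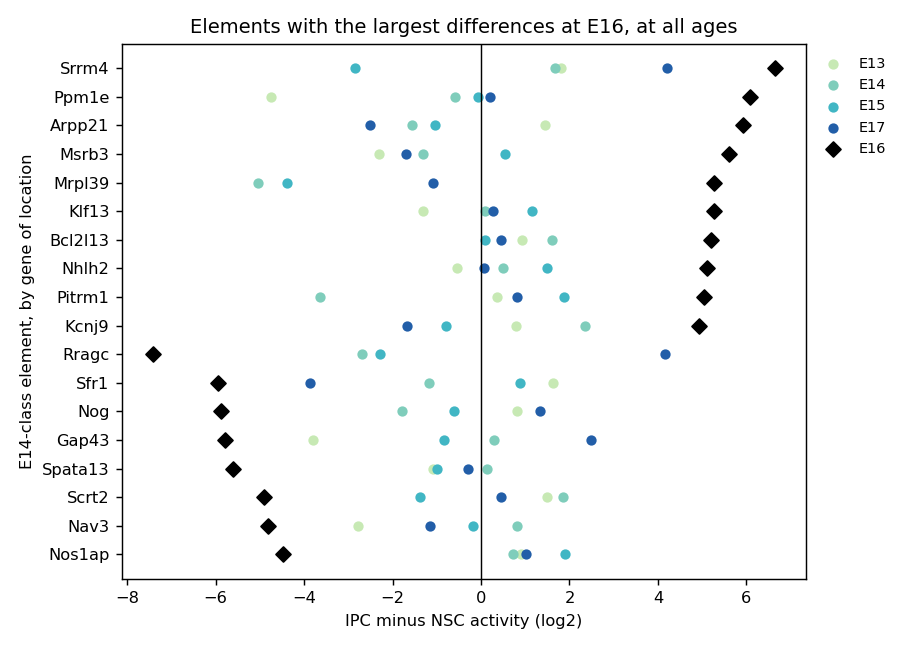
IPC minus NSC activity (log2) at E16 (black diamonds) and at E13, E14, E15 and E17 (circles) for 18 of the 20 E14-class elements with the largest differences, 10 higher in IPC and 8 higher in NSC, named by the gene they lie in or nearest to. The E16 values were chosen for their size; the circles scatter on both sides of 0.

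Over the whole E14 class a weak repeat of the E16 difference was present at other ages. When its 902 elements were split into 5 groups of equal size by the E16 difference, the mean difference over the other 4 ages was -0.17 ± 0.07 in the lowest group, 0.05 ± 0.07, 0.24 ± 0.07 and 0.32 ± 0.07 in the next ones, and 0.18 ± 0.08 in the highest. The highest minus the lowest group was 0.35 ± 0.11 at the other ages, for a gap of 5.24 at E16 itself. The same quantity was 0.05 ± 0.08 for the scrambled controls, 0.10 ± 0.05 for the NSC class, 0.04 ± 0.05 for the IPC class, -0.09 ± 0.06 for the Mature class and 0.03 ± 0.09 for the Shadow class. The Spearman correlation of the E16 difference with that of another age was 0.06, 0.08, 0.10 and 0.14 for E13, E14, E15 and E17 in the E14 class, and -0.03 to 0.06 in the controls. Elements are the points here, and all ages share the reporter library.

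Of E14-class elements beyond an E16 limit with a value at all 4 other ages, 5 of 46 (10.9%) above it and 5 of 41 (12.2%) below it kept their sign at every other age. Among all E14-class elements 14.2% were higher in IPC at the 4 other ages and 8.09% lower. The 5 that kept a higher value in IPC, named after their values were seen, lay within Bcl2l13, Cacna2d1 and Fam171b and near Kcna1 and Sox11. The Cacna2d1 element, at a calcium channel subunit gene, differed by 4.03 at E16 and by 1.81, 0.94, 1.99 and 2.19 at E13, E14, E15 and E17. The 5 that stayed higher in NSC lay near Foxd3, Emx2, Dcakd and Acad8 and within Gabrb1, a GABA receptor subunit gene. The Gabrb1 element differed by -3.37 at E16 and by -3.64, -2.12, -2.98 and -0.52 at the other ages.

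Elements at genes of cortical development were listed by role. At 14 of 27 genes of neural stem cells and radial glia there were 23 E14-class elements, of which 1 lay above and 3 below the limits, with a median difference of -0.01. Over all 902 E14-class elements 5.21% lay above and 4.66% below, and the median was 0.04. An element 1.64 kb from Emx2, a cortical patterning factor, had 3.11 in NSC and -0.60 in IPC, giving a difference of -3.71, and smaller values of the same sign at E13, E14, E15 and E17 (-0.33, -0.81, -0.70 and -0.63). Elements within Fgfr2, a fibroblast growth factor receptor gene (-3.65), and 238 kb from Id4, an inhibitor of basic helix-loop-helix factors (-3.60), were the others below the limit. At E13, E14, E15 and E17 this Fgfr2 element differed by 0.86, 2.79, -1.80 and 1.76, and the Id4 element by 0.34, -0.72, 0.79 and 1.61. The Fgfr2 element, at 1.88 in NSC at E16, was not active there, and another element within Fgfr2 differed by 0.05.

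Pax6, the factor by which NSC were sorted, held 5 elements within its span, and they did not move together. Their differences at E16 were -0.94, 2.48, 1.17, -2.45 and 4.42 in genome order. The element at chr2:105690065-105690330, with -2.31 in NSC and 2.11 in IPC, was above the difference limit but active in neither cell type. Its differences at the other ages were -2.35, 1.20, 0.48 and 1.58. The element at chr2:105686827-105687092 was active in NSC (2.71) and not in IPC (0.25), and its difference had the opposite sign at E13, E14 and E15 (0.86, 0.65 and 2.08). An element 52.6 kb from Sox9, a radial glia and glial factor, was also active in NSC (3.06, against 0.46 in IPC). An element 42.9 kb from Hopx, a radial glia gene, was active in IPC (2.996) and reached 1.03 in NSC, with the opposite sign at E14, E15 and E17.

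The intermediate progenitor list had elements at only 3 of its 14 genes, and none passed a limit. The element 1.74 kb from Eomes, which encodes the sorting marker Tbr2, had -0.72 in NSC and -0.58 in IPC. Those near Gadd45g and Ppp1r17 differed by 1.06 and -1.13. Neuronal differentiation genes had 10 elements, with 1 above and 1 below the limits (5.21% and 4.66% over the E14 class): the Gap43 element, below, and, above, one 327 kb from Sox11, a factor of newborn neurons. The Sox11 element had 0.61 in NSC and 4.03 in IPC, giving a difference of 3.42, with 0.07, 1.95, 1.36 and 2.81 at E13, E14, E15 and E17. It fell inside the limits with a pseudocount of 0.01. At E16 another element, 496 kb from Sox11, differed by 0.17, and another within Gap43 by 0.16. The layer identity list had 8 elements, of which none passed a limit, with a median of -0.37.

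The list of temporal and gliogenic genes had 13 elements, none above and 4 below the limits (5.21% and 4.66% over the E14 class), with a median difference of -0.34. These 4 were within Hmga2, a chromatin protein of early progenitors (-3.58), within the glial transcription factor gene Nfia (-3.51), near Olig2 (-3.41) and within Sparcl1 (-3.14). Only the Hmga2 element was active in NSC (3.30). The Nfia, Olig2 and Sparcl1 elements had 0.22, 0.88 and 1.76 in NSC and -3.28, -2.54 and -1.38 in IPC, and each fell inside the limits under at least 1 other pseudocount. The Nfia value in IPC lay near the floor set by the pseudocount. The sign was opposite at E15 and E17 for the Hmga2 element and at E15 for this Nfia element. It was opposite at E13 and E14 for the Olig2 element and at E13, E14 and E15 for the Sparcl1 element. The other elements at Nfia differed by 2.13, -0.34 and 1.67 at E16. Elements within Prdm16 (2.62 in NSC, 5.34 in IPC) and Zbtb20 (1.28 and 2.99) were active in IPC. The Prdm16 value in NSC lay just under the activity limit of 2.63. Their E16 differences, 2.72 and 1.71, lay inside the limits. At E13, E14, E15 and E17 the Prdm16 element differed by -3.58, -2.13, 0.41 and 1.83. The Zbtb20 element differed by 0.71, 0.13, 0.15 and -2.43 at these ages. The Prdm16 element was among the 5 E14-class elements with the highest mean over both cell types, with those at Shb, Vcam1, Tmem177 and Rragc.

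E14-class elements within gene spans differed between cell types by 0.16 ± 0.08 (n = 511) and those outside by 0.03 ± 0.10 (n = 391). The gap between both groups was not tested. Shadow elements carry the same coordinates as E14-class elements in 844 pairs. The E14-class member was more active than its Shadow partner by 0.28 ± 0.06 in NSC (n = 811) and 0.31 ± 0.08 in IPC (n = 797), while the cell-type difference was alike in both (0.02 ± 0.09, n = 788). Of 42 Shadow partners of elements above the limit, 1 lay above it as well, and of 35 partners of elements below it, 1 lay below. Over all Shadow elements 5.06% lay above and 3.56% below. At the Sox9 coordinates the E14-class element differed by -2.60, inside the limits, and its Shadow partner by 7.14. The Shadow value came from 3.66 in IPC and -3.47 in NSC, the latter near the floor set by the pseudocount. That partner had no difference value at E13 or E17.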

How the data were processed

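Per the labels, reporter DNA and RNA of sorted NSC and IPC were sequenced at 5 ages. Per the submitters' processing notes, the tool cutadapt and build mm10 were used, with no version for the first. Aligner, barcode counting, filters and quantification tool: not given in the sources used here. In the table that the authors deposited, 30 value columns pool the biological samples, 3 columns per cell type and age. The first, per the file headers a statistic, is an activity score without a stated unit, and the second is the authors' MAD score. The values show that the MAD score is the statistic minus the scrambled median, over 1.4826 times the scrambled median absolute deviation. The third is the authors' deposited p-value, which equals a one-sided normal p of the MAD score with Benjamini-Hochberg adjustment.

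From these, activity was derived: statistics were scaled to the column's scrambled median, 0.1 was added, the log2 was taken and the scrambled mean was subtracted. Log2 differences of low values are therefore understated. Limits leave 2.5% of scrambled controls on either side. They are descriptive, since no value per biological sample was used. Elements with a missing value in either E16 column were left out (250 without a value in IPC alone, 130 in NSC alone and 204 in both). E14-class elements were named by a rule: the 10 largest differences in each direction beyond the difference limit and above the activity limit, the 5 highest means over both columns, and those at listed cortical genes beyond a limit. Of these, 2 elements higher in NSC are not reported here by name. For the other classes the rule named up to 2 per direction. Of these only the Shadow element at Sox9 is given in the text, since NSC, IPC and Mature names carry no position used here. Members and lists were chosen with earlier results of these data known. Genes were assigned by distance to 21900 protein-coding spans of RefSeq (GRCm38.p6), and E14-class sequences outside promoter windows were not analysed here. The planned motif and base composition comparison over all E14-class elements was therefore not made. The calculation of the limits was checked on differences redrawn from the same scrambled controls, with known shifts added. This check is not an independent test of the limits. Python 3.11.15, pandas 2.3.3, NumPy 2.4.6, SciPy 1.17.1 and matplotlib 3.10.9 were used. Alternatives were other pseudocounts, medians, scaling, tails, filters, MAD scores and the authors' p-values.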

Additional observations from a re-analysis of the deposited data

Results flagged for a closer look

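The asc elements of the IPC class stood at a mean IPC minus NSC difference of -0.0226 at E16 and at positive means at the other 4 ages (0.02 at E13, 0.07 at E14, 0.02 at E15 and 0.20 at E17). The opposite sign drew attention to it, but the E16 value is smaller than its standard error of 0.07 over 699 elements, and the difference between ages was not tested.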

How the results depend on the processing

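No paired analysis was possible because each deposited column pools the biological samples of its cell type and age, and leaving out a replicate was not possible for the same reason. The 40 class values under 8 alternatives kept the direction of both class differences whose 95% interval excluded 0. MAD scores, on another scale, were compared by direction only. Of the others, 6 lay outside the 95% interval of the same class in the main setting. The NSC class stood at -0.15 with a pseudocount of 1 and at -0.31 as a median. With a pseudocount of 0.01 the interval of the IPC class included 0 (0.06, -0.01 to 0.13). The IPC class stood at 0.00020 as a median and at 0.16 with low values filtered out. With that filter the Mature class stood at 0.11, the Shadow class at 0.20 and the E14 class at 0.19, with intervals that exclude 0, against 0.06 (-0.07 to 0.19) for the controls so filtered. The filtered intervals of these classes and of the IPC class overlapped that of the controls. The 18 label values moved within their errors. More elements lay below than above the difference limits with a pseudocount of 0.5 (412 above, 440 below) and with low values filtered out (349 and 376). With 0.5% tails 170 elements lay above and 74 below the difference limits, with 1% tails 257 and 190, and with 5% tails 726 and 709, against 461 and 417. Active elements in NSC and IPC were 100 and 211 with 0.5% tails, 173 in NSC with 1% tails, and 727 and 776 with 5% tails, against 347 and 472. By the authors' adjusted p under 0.05 they were 1960 and 1639, and under 0.01 they were 1542 and 1340. With other pseudocounts the elements at Sox11 and Sparcl1 (pseudocount 0.01), Nfia and Olig2 (0.5 and 1) and Sparcl1 (1) fell inside the limits, and those at Sox9 and Prdm16 lay beyond them (0.5 and 1). The cause was not tested. Sequencing depth is unknown, so no limit from depth can be given.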
